A study of Mus musculus with 16 samples.

Results

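The 10 genes described here belong to the JAK-STAT pathway: Stat3, Stat4, Stat5a, Stat5b, Jak1, Jak3, Socs1, Socs2, Socs3 and Cish. They were chosen by name rather than by a cutoff on measured values, but with earlier results of these data known. All 10 were found among 21000 protein-coding genes with a curated RefSeq transcript. Each gene body was extended by 20 kb on both sides. Stat3, Stat5a and Stat5b lie next to each other and were taken as 1 locus, which gave 8 loci that span 772 kb. Of the 214352 peaks in 12 lists, 335 overlapped these loci. A promoter was the window of 1 kb on either side of a transcription start site (TSS), and the 10 genes have 19 distinct curated TSSs. By this division 95 of the 335 peaks lay at a member TSS, 44 at the TSS of a neighbouring gene and 196 elsewhere.

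Cytokines such as IL-2 bind receptors that carry no kinase activity of their own and that rely on Janus kinases (JAKs) bound to their tails. The kinases phosphorylate the receptor and then STAT proteins, which pair, enter the nucleus and bind DNA at GAS elements with the letters TTCNNNGAA. STAT5 induces Cish and several Socs genes, whose products inhibit the receptors and kinases, so the pathway restrains itself. In CD8+ T cells JAK1 and JAK3 serve the IL-2 receptor, STAT5A and STAT5B carry most of its signal, STAT4 responds to IL-12, and STAT3 to IL-6 and IL-21. LSD1 is a histone demethylase that removes methyl groups from H3K4me1 and H3K4me2, marks of enhancers and promoter flanks. H3K4me3 marks active promoters, H3K27ac active promoters and enhancers, and RNA polymerase II (Pol II) transcribes the genes.

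Spleens of OT1 mice, a strain with a T cell receptor transgene that recognises an ovalbumin peptide, supplied the CD8+ T cells. Antibodies to CD3 and CD28 activated them over 48 h with IL-2 at 20 ng/mL already present. IL-2 then expanded them over 3 days, so every sample came from cells held in a cytokine that signals through these genes. GSK2879552 (GSK), an irreversible LSD1 inhibitor, was present at 0.5 μM throughout, or vehicle (Veh) was used in its place. Chromatin immunoprecipitation and sequencing (ChIP-seq) with 6 antibodies gave 12 libraries, 1 for each antibody and treatment. The 4 input samples of the 16 in the series have no peak list and were not analysed here. The labels do not say how many animals a library pools.

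With 1 library per antibody and treatment there was no replicate, so no difference between GSK and Veh could be set against a spread between replicates and none was tested. A repeat of the experiment is mentioned in the study and was not analysed here. The lists hold no read numbers. The study's own account of read pairs per library puts GSK below Veh for H3K27ac, by the widest margin of any antibody, and also for H3K4me2 and LSD1. The same account puts GSK above Veh for Pol II and H3K4me1, and by less for H3K4me3. It describes drawing equal numbers of reads to compare signals but does not say whether peaks were called on those reads, so the part of depth in any difference was not tested. A peak that is missing from a list was below the calling threshold rather than shown to be absent. Lists ranged from 2751 peaks for GSK H3K27ac to 40272 for GSK H3K4me1. The labelled cell type was checked through marker genes. All 7 T cell genes examined, among them Cd3e, Cd8a and Lck, had an H3K4me3 promoter peak in both treatments. Of 10 genes of CD4+ T, B, myeloid and NK cells, 0 had a promoter peak of H3K4me3, H3K27ac or Pol II in either treatment.

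Coordinates are those of mm10. Stat4 (NCBI Gene 20849) occupies chromosome 1 from 51987106 to 52107189, and Jak1 (16451) chromosome 4 from 101151974 to 101265282. Jak3 (16453) lies on chromosome 8 from 71676383 to 71690577 and Cish (12700) on chromosome 9 from 107296659 to 107302784. Socs2 (216233) lies on chromosome 10 from 95383903 to 95417321. On chromosome 11, Stat5b (20851) runs from 100780731 to 100859004, Stat5a (20850) from 100859351 to 100885169 and Stat3 (20848) from 100886806 to 100939594, and Socs3 (12702) lies apart from them at 117966079 to 117970336. Socs1 (12703) is on chromosome 16 from 10783808 to 10785536. Stat5a and Stat5b are related genes that lie side by side. Of the 25720 stretches of 100 bases in Stat5a, 500 (1.94%) occur without a mismatch in Stat5b, and a read that lies wholly in such a stretch has no unique place. How many read pairs this removed was not tested.

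The promoter sequences come from RefSeq on GRCm38.p6, which is mm10. Entries matched 9 of the 10 genes, with 12 sequences, and Socs2 was not matched. The first sequences below are shown because GAS elements, the letters that STAT proteins bind, stand in 2 of the 12, against 8.3% of all 32851 promoter sequences of the same length. They are Cish with 2 elements and Socs3 with 1. Socs1 is printed beside them because it shares the peak pattern of Cish without such an element. Stat4 and Stat5b are shown for their base composition, given with the H3K4me3 results. Each is written 5′ to 3′ on the strand of the gene and ends at the base before the TSS, except that Cish runs on to base 20 of the transcript. Capitals mark TTCNNNGAA.
Cish, chr9:107296409-107296678, plus strand: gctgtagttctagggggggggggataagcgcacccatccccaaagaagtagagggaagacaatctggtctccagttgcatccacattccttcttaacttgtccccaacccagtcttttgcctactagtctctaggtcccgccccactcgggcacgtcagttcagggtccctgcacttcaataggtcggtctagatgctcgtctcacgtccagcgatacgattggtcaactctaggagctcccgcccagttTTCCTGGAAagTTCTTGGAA
Socs3, chr11:117969367-117969616, minus strand: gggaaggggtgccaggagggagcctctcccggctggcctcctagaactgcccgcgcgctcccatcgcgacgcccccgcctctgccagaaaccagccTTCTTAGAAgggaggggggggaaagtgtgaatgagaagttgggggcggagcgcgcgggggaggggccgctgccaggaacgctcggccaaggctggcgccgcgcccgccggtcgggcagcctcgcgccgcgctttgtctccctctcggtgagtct
Socs1, chr16:10785537-10785786, minus strand: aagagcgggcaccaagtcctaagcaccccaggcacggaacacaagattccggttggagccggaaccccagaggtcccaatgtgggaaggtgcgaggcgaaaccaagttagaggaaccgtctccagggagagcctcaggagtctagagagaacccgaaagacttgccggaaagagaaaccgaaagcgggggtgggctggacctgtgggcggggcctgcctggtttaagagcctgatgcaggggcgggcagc
Stat4, chr1:52007990-52008239, plus strand: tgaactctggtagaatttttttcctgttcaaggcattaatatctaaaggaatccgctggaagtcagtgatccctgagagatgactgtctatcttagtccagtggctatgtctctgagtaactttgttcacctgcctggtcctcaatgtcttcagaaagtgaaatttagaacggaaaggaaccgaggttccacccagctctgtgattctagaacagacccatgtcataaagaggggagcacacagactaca
Stat5b, chr11:100850582-100850831, minus strand: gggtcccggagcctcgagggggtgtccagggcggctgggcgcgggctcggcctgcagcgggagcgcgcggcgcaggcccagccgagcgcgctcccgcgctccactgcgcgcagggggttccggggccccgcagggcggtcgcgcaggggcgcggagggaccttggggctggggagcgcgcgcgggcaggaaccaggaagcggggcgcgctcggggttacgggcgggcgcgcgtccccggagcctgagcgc

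In Cish the elements TTCCTGGAA and TTCTTGGAA cover bases 1 to 9 and 12 to 20 of the transcript, and in Socs3 TTCTTAGAA lies from −154 to −146. The ETS letters CCGGAAGT and the RUNX letters TGTGGTT, searched on both strands like the GAS letters, were in 0 of the 12 sequences, against 3.89% and 5.27% of all promoter sequences. None of these 3 motifs overlaps another in the sequences shown.

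A further set of sequences shows LSD1 sites away from promoters, 100 bases on each side of the peak summit, on the plus strand. They were picked because they are the strongest LSD1 peaks of their locus, occur in a single treatment or hold a GAS element, which is in capitals.
Socs1 +13 kb, Veh, chr16:10772235-10772435: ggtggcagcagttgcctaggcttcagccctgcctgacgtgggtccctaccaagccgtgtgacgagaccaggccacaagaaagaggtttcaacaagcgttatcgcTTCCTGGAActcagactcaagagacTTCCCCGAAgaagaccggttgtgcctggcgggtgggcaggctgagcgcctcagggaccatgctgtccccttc
Cish +16.4 kb, Veh, chr9:107312970-107313170: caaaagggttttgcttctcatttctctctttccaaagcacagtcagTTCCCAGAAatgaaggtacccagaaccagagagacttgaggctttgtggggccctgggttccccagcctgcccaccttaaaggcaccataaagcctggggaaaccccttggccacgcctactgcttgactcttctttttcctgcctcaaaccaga
Cish +11.3 kb, Veh only, chr9:107307936-107308136: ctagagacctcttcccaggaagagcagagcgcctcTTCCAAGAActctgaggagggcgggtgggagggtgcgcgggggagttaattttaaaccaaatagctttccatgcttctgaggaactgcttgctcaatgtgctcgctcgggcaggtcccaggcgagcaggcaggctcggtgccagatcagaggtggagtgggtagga
Stat4 +105.7 kb, Veh, chr1:52113849-52114049: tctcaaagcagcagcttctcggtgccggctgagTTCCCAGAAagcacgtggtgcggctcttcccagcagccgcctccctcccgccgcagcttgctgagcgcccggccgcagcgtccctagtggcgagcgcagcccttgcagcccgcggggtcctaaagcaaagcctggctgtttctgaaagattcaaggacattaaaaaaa
Stat5b intron, GSK, chr11:100804345-100804545: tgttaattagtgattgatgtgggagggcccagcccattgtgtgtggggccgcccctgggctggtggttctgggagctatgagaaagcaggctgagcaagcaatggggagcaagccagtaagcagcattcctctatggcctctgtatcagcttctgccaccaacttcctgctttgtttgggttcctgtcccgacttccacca
Stat5b intron, GSK only, chr11:100837458-100837658: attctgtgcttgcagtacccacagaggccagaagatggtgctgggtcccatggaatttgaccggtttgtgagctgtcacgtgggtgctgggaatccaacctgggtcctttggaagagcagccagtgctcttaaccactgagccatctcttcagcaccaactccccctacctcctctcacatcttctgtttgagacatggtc

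GAS letters were within 100 bases of 4 of 30 Veh and 5 of 28 GSK LSD1 summits in the loci, or 13.3% and 17.9%, against 6.17% of all 21252 Veh and 4.41% of all 19919 GSK summits. These windows include pairs that cover the same site in both lists, so the counts are not independent. The elements near summits lay at Socs1, Cish, Socs2 and downstream of Stat4. The GSK-only LSD1 peak at the Cish TSS had its summit at 107296757, and 4 elements stood within 100 bases of it: TTCCTGGAA, TTCTTGGAA, TTCTAGGAA and TTCCGGGAA. The RUNX letters were near 2 Veh summits and 0 GSK summits, and the ETS letters near 0 of either. A match of letters describes the sequence and does not show that a factor was bound.

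All 10 genes carried H3K4me3 at the promoter in both treatments. Every one had a Pol II promoter peak in Veh cells and an LSD1 promoter peak in GSK cells. A gene of the 10 had a promoter peak in a median of 8.5 of the 12 lists (range 6 to 11), whereas the median of all protein-coding genes was 5 (interquartile range 0 to 8). Socs2 had a peak in 11 lists and Stat3 in 10, while Socs1 and Cish had a peak in 6. The share of all protein-coding genes with an H3K4me3 promoter peak was 56.3% in Veh and 57.5% in GSK.

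**Figure D1:**
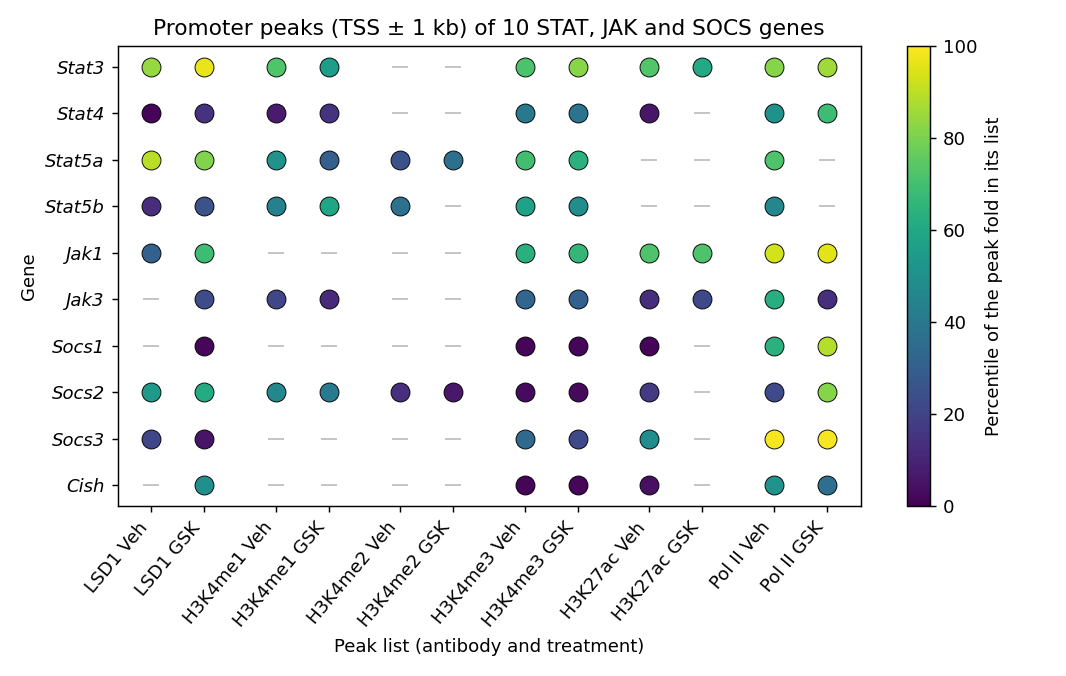
Promoter peaks of the 10 genes (rows) in the 12 peak lists (columns, 1 library each). A circle is a peak within 1 kb of a TSS, its colour the percentile of the highest fold within that list, and a dash is no peak. H3K4me3 is filled in all 20 cells, LSD1 in 7 of 10 for Veh and 10 of 10 for GSK, and H3K27ac in 8 of 10 for Veh and 3 of 10 for GSK.

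LSD1 peaks were called at more of these promoters with GSK than with Veh, which is a count of calls rather than a measure of occupancy. Across promoters the study describes little change of LSD1 with GSK. A peak was present at 7 of 10 in Veh cells and at 10 of 10 in GSK cells, against 40.9% and 46.9% of all protein-coding genes. The 3 genes with a peak in GSK cells only were Jak3, Socs1 and Cish, a state that 10.8% of all genes had. None of the 10 had a peak in Veh cells only, which 4.85% of all genes had. The nearest Veh LSD1 peak was 2.81 kb from the TSS of Socs1, 4.54 kb from that of Jak3 and 9.42 kb from that of Cish. The GSK peaks that appeared were of modest strength. Fold enrichment, which MACS2 computes as ChIP pileup over the local background, was 3.71 at Jak3, 2.92 at Socs1 and 4.45 at Cish, with −log10 p of 8.35, 6.0 and 8.95. Within the GSK LSD1 list these folds stood at percentiles 22.8, 1.93 and 49.4, a percentile being the share of peaks in the list with an equal or lower fold.

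At the 7 promoters with LSD1 in both treatments, the fold was 5.79 in Veh and 8.28 in GSK at Stat3, 3.68 and 5.18 at Jak1, and 2.74 and 3.45 at Stat4. At Stat5a it was 6.41 and 5.88, and at Socs3 3.52 and 3.15. At Stat5b the highest folds, 3.27 and 3.78, come from peaks that do not overlap, and the GSK peak on the Veh site had 3.29. The fold was higher in GSK at 5 of the 7, and at 5491 of the 7581 genes with LSD1 in both lists. The median log2 ratio of GSK to Veh fold was 0.21 over the 7 genes (SD between genes 0.27) and 0.20 over the 7581. When a −log10 q of at least 5 was required of every peak, 3 of the 10 had LSD1 in Veh and 6 in GSK. Under that cutoff Jak1, Jak3 and Cish were present in GSK only, and Socs1 in neither list.

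**Figure D2:**
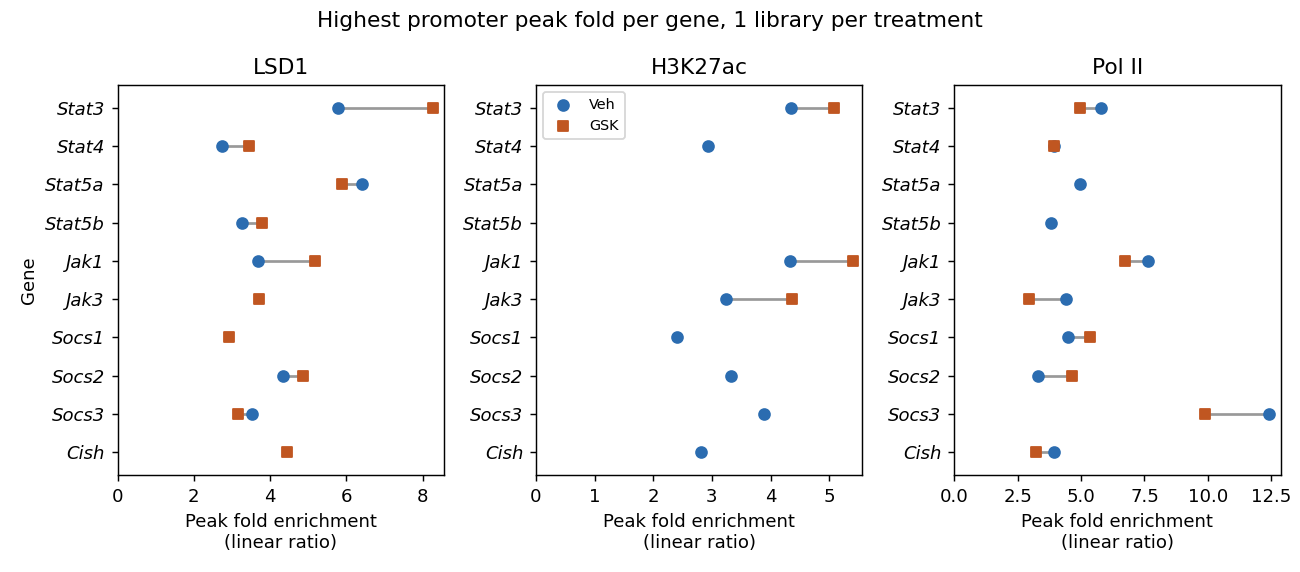
Highest fold of a promoter peak per gene (rows) for LSD1, H3K27ac and Pol II, on linear axes that start at 0. Circles are Veh, squares GSK, 1 library each without error bars, a line joins a gene with a peak in both, and a missing symbol means no peak. LSD1 at Stat3 moves from 5.79 to 8.28, and H3K27ac is left at Stat3, Jak1 and Jak3 in GSK.

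Among the STAT genes, Stat3 had the strongest LSD1 promoter peak in GSK cells, with a −log10 p of 28.3 and a fold at percentile 96.5 of its list, against 15.5 and 84.2 in Veh. Its H3K4me3 fold was 6.90 in Veh and 7.76 in GSK, a log2 ratio of 0.17 that stood at percentile 89.6 of all genes with H3K4me3 in both lists. H3K27ac was 4.35 and 5.09 there, and Pol II 5.81 and 4.96. Stat3 thus kept every mark it had in Veh cells.

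Stat5a and Stat5b, the transducers of IL-2, lacked a promoter H3K27ac peak in both treatments and had a Pol II peak in Veh only. Pol II at Stat5a had a fold of 4.96 in Veh (−log10 p 8.67) and no peak in GSK. At Stat5b the Veh Pol II peak had a fold of 3.83 and lay at the internal TSS at 100822570, again with no peak in GSK. With a −log10 q of at least 5, Stat5b had no Pol II promoter peak in either list. A Pol II promoter peak in Veh cells only was the state of 8.28% of all protein-coding genes, and 33.1% had one in Veh and 28.1% in GSK. H3K4me2 was 4.08 and 4.69 at Stat5a, while at Stat5b it was 4.36 in Veh without a peak in GSK. At Stat5b the highest H3K4me3 fold was 6.07 in Veh, near the TSS at 100813370, and 5.71 in GSK, near the TSS at 100850581, so these are different sites. Stat4 had the weakest LSD1 of the group, with a −log10 p of 3.83 in Veh and 5.37 in GSK, and its peaks lay 0.72 and 0.66 kb from the TSS. Its H3K27ac fold was 2.93 in Veh with no GSK peak, and Pol II was 3.92 and 3.95.

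The kinase genes differed in their promoter marks. Jak1 held LSD1, H3K4me3, H3K27ac and Pol II in both treatments and neither H3K4me1 nor H3K4me2 in either. Its Pol II fold was 7.63 in Veh and 6.75 in GSK, percentiles 93.3 and 95.6. At Jak3, the kinase bound to the common gamma chain, Pol II was 4.42 in Veh and 2.95 in GSK. This log2 ratio of −0.59 was the lowest of the 8 members with Pol II in both lists and stood at percentile 20.0 of all 5213 such genes. The GSK Pol II peak at Jak3 had a −log10 p of 4.41. With a −log10 q of at least 5, Jak3 had no Pol II promoter peak in either list. H3K27ac at Jak3 had folds of 3.23 and 4.37, with −log10 p of 8.15 and 7.25. These directions were those of most genes with a peak in both lists. The H3K27ac fold was higher in GSK at 1728 of 1924, and the Pol II fold lower at 4300 of 5213.

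The inhibitor genes Socs1, Socs2, Socs3 and Cish all had H3K4me3 and Pol II in both treatments, and all had H3K27ac in Veh cells only. Socs3, an inhibitor that binds cytokine receptors, had the highest Pol II fold of the 10 genes. It was 12.4 in Veh and 9.87 in GSK, percentiles 98.8 and 98.7. Pol II at Socs2 was 3.32 in Veh and 4.65 in GSK, and at Socs1 4.48 and 5.34. Those log2 ratios of 0.48 and 0.25 stood at percentiles 98.9 and 95.2 of all genes with Pol II in both lists, whose median was −0.31. The Veh Pol II peak at Socs2 was weak, with a −log10 q of 1.81. With a −log10 q of at least 5, Socs2 had Pol II in GSK only. At Socs1 the Veh Pol II peak of 1042 bp overlapped 2 GSK peaks, of 5.34 and 3.33, and the higher was compared. Pol II at Cish was 3.94 and 3.22. Over the 8 members with Pol II in both lists the median log2 ratio was −0.20 (SD between genes 0.34), with 3 higher and 5 lower in GSK. With a −log10 q of at least 5, Pol II was at 6 of the 10 promoters in Veh and at 5 in GSK.

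H3K27ac was at 8 of the 10 promoters in Veh cells and at 3 in GSK cells, against 22.9% and 9.55% of all protein-coding genes. The 3 that kept it were Stat3, Jak1 and Jak3. The 5 with a peak in Veh cells only were Stat4, Socs1, Socs2, Socs3 and Cish, a state that 13.8% of all genes had, and none had it in GSK only, as 0.39% did. Of all 4819 genes with a Veh H3K27ac promoter peak, 1924 (39.9%) also had a GSK peak, which is close to the 3 of 8 here. The Veh folds at the 5 genes were 2.41 for Socs1, 2.81 for Cish, 2.93 for Stat4, 3.33 for Socs2 and 3.88 for Socs3. Of the promoters that kept a peak, Jak1 had 4.33 and Stat3 4.35, above all 5, but Jak3 had 3.23, below Socs2 and Socs3. Over all genes, the share with a GSK peak was 22.3% (95% Wilson interval 16.0 to 30.2) at a Veh fold below 3 and 30.6% (28.6 to 32.7) from 3 to 4. It was 43.0% (40.9 to 45.2) from 4 to 5 and 59.1% (55.5 to 62.5) at 5 or more. These intervals cover counting error only. With both lists held to 2751 peaks, H3K27ac was at 2 of the 10 promoters in Veh, Stat3 and Jak1, and at 3 in GSK, so the drop from 8 to 3 was not seen at equal list length. The 3 kept promoters had log2 fold ratios from 0.22 to 0.44 with a median of 0.32, and the median of all 1924 was 0.24.

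H3K4me3 formed unusually wide domains at the inhibitor genes. The widest promoter peak was 3928 bp in Veh and 3912 bp in GSK at Socs1, and both stood at percentile 99.9 of their lists. At Cish the widths were 3282 and 3173 bp, percentiles 99.4 and 99.3, and at Socs2 2966 and 3000 bp, percentiles 98.9 and 99. Socs3 had 2015 and 2080 bp, percentiles 91.9 and 93.9. The other 6 genes had widths from 1187 to 1840 bp, and the list medians were 1034 and 1008 bp. No width of the 4 inhibitor genes overlapped those of the STAT and JAK genes in either treatment. The wide peaks had low folds: 2.62 and 2.51 at Socs1, 2.62 and 2.67 at Cish, and 3.08 and 2.97 at Socs2, percentiles 1.2 to 2.93. The fold of a broad peak is an average over its width. H3K4me3 was in Veh only at 0.319% and in GSK only at 1.53% of all genes, and at 0 of the 10 in each case. Over the 10 genes the median log2 ratio was −0.040 (SD between genes 0.087, 3 higher and 7 lower in GSK), and over all 11750 genes 0.021.

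**Figure D3:**
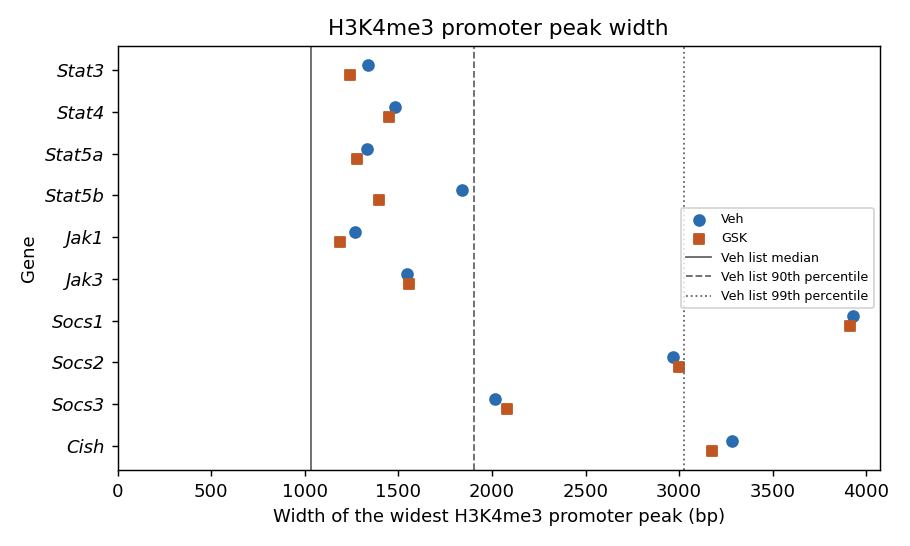
Width in bp of the widest H3K4me3 promoter peak of each gene, circles for Veh and squares for GSK, 1 library each, with vertical lines at the median, 90th and 99th percentile of the Veh list. Socs1 at 3928 and 3912 bp and Cish at 3282 and 3173 bp lie beyond the 99th percentile, and the STAT and JAK genes are at 1840 bp or less.

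The promoters differ in base composition too. The ratio of observed to expected CpG, taken over the whole RefSeq entry, which runs past the printed end, was 1.01 for the Stat5b promoter shown and 0.253 for that of Stat4. It was 0.614 for Socs1, 0.769 for Socs3 and 0.521 for Cish. The median was 0.533 over the 12 member sequences and 0.384 over all 32851.

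H3K4me1 and H3K4me2 are the substrates of LSD1. H3K4me1 was at 6 of 10 in both treatments, against 33.3% of all genes in Veh and 40.4% in GSK. It was in GSK only at 0 of the 10, against 10.8%, and in Veh only at 0, against 3.7%. Jak1, Socs1, Socs3 and Cish lacked it in both lists. The fold was 4.54 in Veh and 3.97 in GSK at Stat3, 4.03 and 3.32 at Stat5a, and 3.20 and 2.72 at Jak3. It was 3.85 and 4.06 at Stat5b, 2.63 and 2.82 at Stat4, and 3.93 and 3.61 at Socs2. The Stat5a folds come from different sites, and the GSK peak that overlapped the Veh site had 3.02. Of the 8 GSK promoter peaks 2 overlapped no Veh peak, at 100858336 by Stat5a with 3.32 and at 100823195 by Stat5b with 2.21, and both genes had another peak in both treatments. The median log2 ratio over the 6 genes was −0.16 (SD between genes 0.16), with 2 higher and 4 lower in GSK, and −0.035 over all 6222 genes with a peak in both. With a window of 0.5 kb, H3K4me1 was at 2 of 10 in Veh and 4 of 10 in GSK, with Stat5a and Jak3 in GSK only. H3K4me2 was at 3 of 10 in Veh and 2 of 10 in GSK, against 44.2% and 32% of all genes. Stat5a and Socs2 had it in both, and Stat5b in Veh only, as did 14.3% of all genes. It was in GSK only at 0 of the 10 and at 2.09% of all genes. Pol II was in GSK only at 0 of the 10 and at 3.3% of all genes.

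The number of peaks in the 8 loci followed the length of the lists for most antibodies. LSD1 had 30 peaks in Veh and 28 in GSK, a ratio of 0.933 (95% interval 0.561 to 1.55), and the whole lists had a ratio of 0.937. H3K27ac fell from 18 to 7, a ratio of 0.389 (0.167 to 0.908) beside 0.371. H3K4me2 went from 23 to 6, a ratio of 0.261 (0.109 to 0.623), below the list ratio of 0.620 although its interval reached it. It was 0.6 with lists of equal length, from 10 Veh peaks, and 0.5 with a −log10 q of at least 5. The ratios were 1.08 for H3K4me1, 1.10 for H3K4me3 and 0.857 for Pol II, with intervals that included 1. All these intervals cover counting error only and take the Veh and GSK counts as independent, although many sites were in both lists. With lists of equal length the H3K27ac ratio was 1.4, from 5 Veh peaks.

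**Figure D4:**
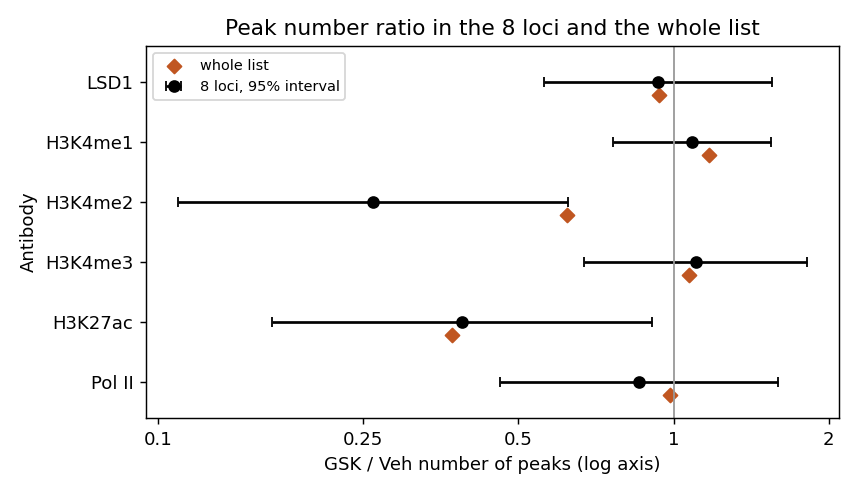
Ratio of the number of GSK to Veh peaks per antibody on a log axis. Circles with 95% intervals, which cover counting error only, are the 8 loci, diamonds the whole lists, and the vertical line marks 1. H3K4me2 has the lowest ratio in the loci at 0.261, and H3K27ac is at 0.389 there and 0.371 in the list.

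Away from every TSS, 9 of 18 Veh LSD1 peaks of the loci were overlapped by a GSK LSD1 peak, or 50% (95% Wilson interval 29.0 to 71.0), and 34.9% of such peaks were in the whole list. For H3K4me2 it was 2 of 15, or 13.3% (3.74 to 37.9), against 38.8%. With peaks at other genes' TSSs included, it was 4 of 19, or 21.1%, and 66.7% of 6 once lists of equal length left out the weaker Veh peaks. H3K4me1 was overlapped at 39 of 48 (68.1% to 89.8%) against 87.7%, H3K4me3 at 9 of 10 (59.6% to 98.2%) against 92%, H3K27ac at 3 of 8 (13.7% to 69.4%) against 29.1% and Pol II at 2 of 10 (5.67% to 51.0%) against 14.3%. Except for H3K4me2, the intervals included the value of the whole list.

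Outside its promoter Jak1 had LSD1 peaks in Veh cells only. In Veh cells 4 lay in its introns, at 101175204, 101182654, 101187390 and 101254720, with folds of 4.65, 3.87, 3.57 and 3.42 and −log10 p from 5.32 to 8.73. In GSK cells 0 were called, while the promoter fold was 3.68 in Veh and 5.18 in GSK. H3K4me1 around the gene had 12 peaks in Veh and 13 in GSK, and H3K4me2 3 and 0. The 3 Veh H3K4me2 peaks had −log10 p of 7.40 or less and fell outside the Veh list of equal length.

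Stat4 had a Veh-only LSD1 peak in an intron, at 52034726, with a fold of 6.43 (−log10 p 14.4). A Veh-only H3K27ac peak with a fold of 2.98 began at 52035605, within 1 kb of it. The strongest LSD1 peak of the locus lay downstream of the gene at 52113664. Its fold was 7.57 in Veh and 5.91 in GSK, and its −log10 p 19.0 and 10.7. H3K4me3 overlapped its edge in both treatments, with folds of 6.63 and 6.38, and Pol II in Veh only, with 5.75. The element TTCCCAGAA printed above begins at 52113882 there, and the same 9 letters stand in the Cish +16.4 kb window.

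Around the adjoining STAT genes, the strongest LSD1 peak away from a TSS was in a Stat5b intron at 100804164, with a fold of 7.29 in Veh and 8.83 in GSK and −log10 p of 17.0 and 22.6. H3K4me1 peaks overlapped this site with and without GSK, at folds of 5.23 and 5.54. GSK cells also had LSD1 in another Stat5b intron, from 100837412, with a fold of 6.92 (−log10 p 13.6), and at 100947574 upstream of Stat3 with a fold of 5.1. No Veh LSD1 peak overlapped either.

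The strong LSD1 sites beside Jak3 lie in other genes. Within B3gnt3, 16.9 kb downstream of the Jak3 TSS, the LSD1 fold was 5.28 in Veh and 8.45 in GSK, and −log10 p 15.7 and 35.2. H3K4me3 was there with 6.77 and 6.69, and H3K27ac in GSK only with 4.84. At the TSS of Unc13a the LSD1 fold was 4.21 and 6.54, with −log10 p of 14.6 and 32.4. H3K27ac lay 7.7 kb upstream of Jak3, in an Unc13a intron, in both treatments with 4.73 and 5.17. GSK cells alone had LSD1 at 71665174, with a fold of 3.99, and Veh cells alone at 71710147, with 3.96.

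Downstream of Socs1, LSD1 was kept at both sites it held away from a TSS within 20 kb. At 10772241, 13 kb from the TSS, the fold was 2.57 in Veh and 3.71 in GSK, and −log10 p 5.42 and 9.89. At 10773958 the fold was 4.35 and 3.77, and −log10 p 14.5 and 9.54. The first of these holds the elements TTCCTGGAA and TTCCCCGAA within 100 bases of its summit. H3K27ac was kept there as well, with 2.84 in Veh and 3.40 in GSK, and also 2.6 kb past the TSS, with 2.69 and 3.47. The Socs1 promoter itself, with a Veh H3K27ac fold of 2.41, had no GSK peak. A H3K27ac peak at 10769606 was in Veh only. The strongest Veh LSD1 peak, with a fold of 4.82, lay at the TSS of Tnp2, where GSK had 3.70.

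Cish had LSD1 on both sides. In the Mapkapk3 intron at 107280508 the fold was 6.53 in Veh and 5.86 in GSK, and at 107312834, 16.4 kb downstream of the TSS, it was 5.12 and 6.37, with −log10 p of 16.4 and 19.9. A weaker site at 107306078 had 2.43 and 3.74. Another, at 107307806, was in Veh only, with 2.74. H3K27ac was in Veh only at all 5 sites of the locus, the promoter included. The 3 away from a TSS began at 107279979, 107308169 and 107312596, with folds of 3.26, 2.58 and 2.87, and each overlapped a Veh LSD1 peak. The −log10 p of the 5 peaks ran from 7.46 to 9.69, and all 5 fell outside the Veh list of equal length, whose lowest value was 10.6.

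**Figure D5:**
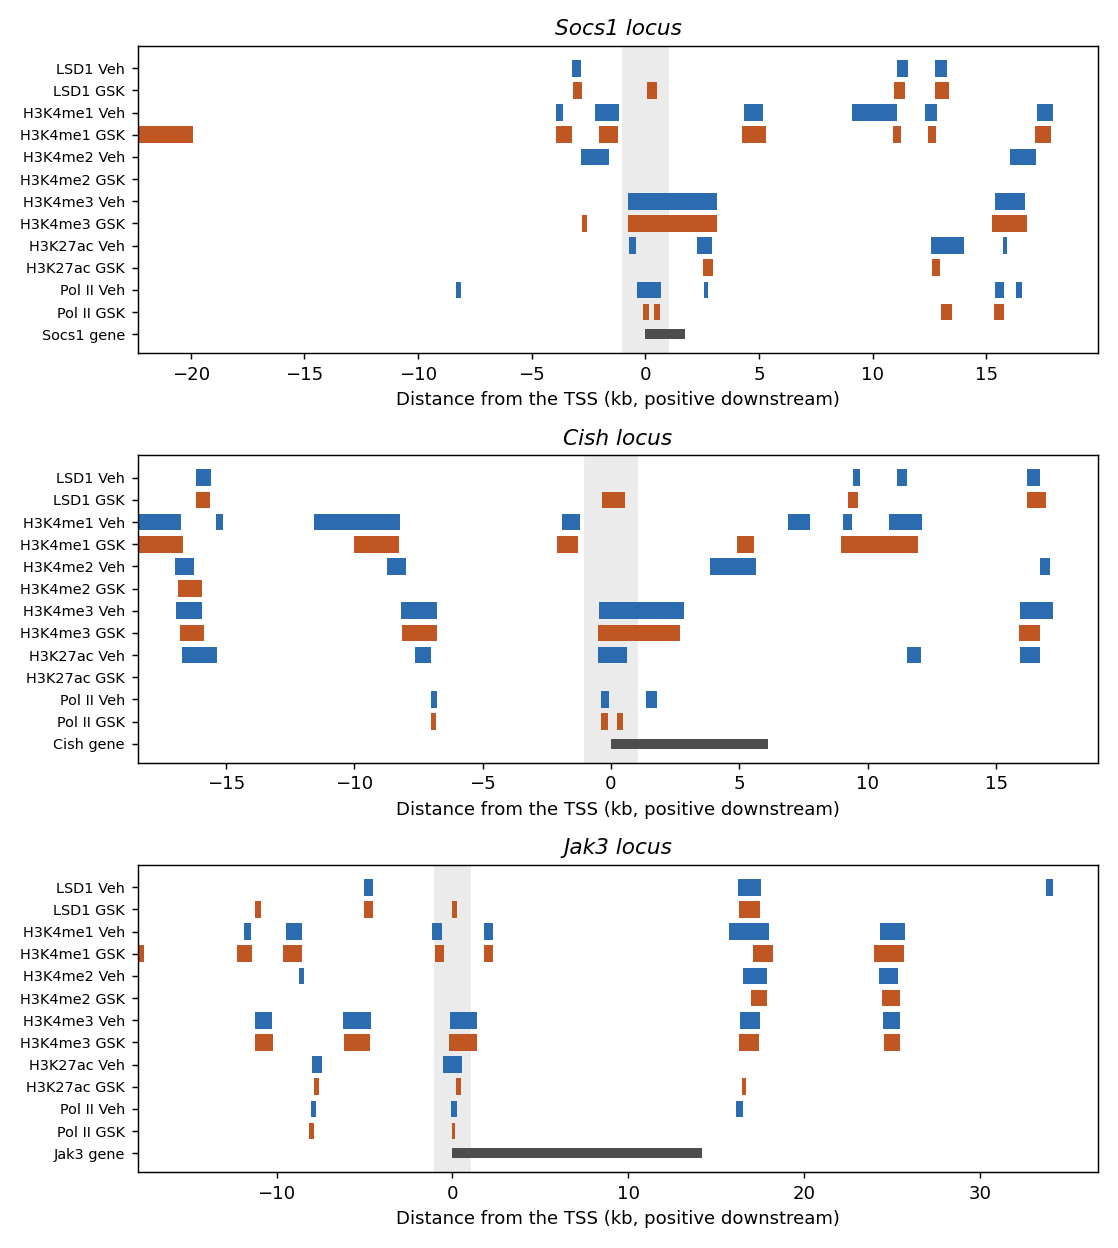
Peaks of the 12 lists around Socs1, Cish and Jak3 against distance from the TSS in kb, positive downstream, with the promoter window shaded and the gene as a grey bar. Blue bars are Veh and orange bars GSK, 1 library each, and bar length is peak width. In each locus the shaded window holds a GSK but no Veh LSD1 peak, and Cish has 5 H3K27ac peaks in Veh and 0 in GSK.

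Socs3 had 2 LSD1 peaks away from its promoter, at 117952252 with a fold of 4.12 and at 117989376 in Pgs1 with 2.80, both in Veh only. Its H3K4me2 went from 3 peaks to 0, and those 3, with −log10 p of 7.41 or less, fell outside the Veh list of equal length. Socs2 had no LSD1 peak outside its promoter window in either treatment. In GSK the Socs2 promoter had 2 LSD1 peaks, with folds of 4.87 and 3.99, where Veh had a single peak of 1388 bp with 4.33.

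H3K4me2 peaks were fewer with GSK in 7 of the 8 loci. The whole list was shorter too, with 15219 peaks in Veh and 9437 in GSK. There were 5 in Veh and 2 in GSK around Stat3, Stat5a and Stat5b, 4 and 1 around Cish, 3 and 2 around Jak3, and 3 and 0 around each of Jak1 and Socs3. Stat4 and Socs1 went from 2 to 0, and Socs2 had 1 in each. Each Veh peak around Jak1, Socs1 and Socs3 had a −log10 p of 7.41 or less, below 7.72, the lowest in the Veh list of equal length. With lists of equal length these loci thus held no H3K4me2 peak in either treatment. All 6 GSK peaks overlapped a Veh peak.

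H3K4me3, by contrast with H3K4me2, was kept at 9 of its 10 Veh sites away from a TSS, several of which were LSD1 sites. The LSD1 sites 16.4 kb downstream of Cish and in the Mapkapk3 intron both overlapped H3K4me3, with folds of 3.76 in Veh and 3.57 in GSK at the former and 4.78 and 4.60 at the latter. At Socs3 the Veh-only LSD1 peak at 117952252 overlapped H3K4me3 of 4.99 in Veh, where GSK had 5.99. Such sites fall outside the enhancer definition used next, which leaves out H3K4me3. A Stat3 intron held the strongest H3K4me3 peak away from a TSS, at 100931314, with a fold of 8.16 in Veh and 8.2 in GSK and no LSD1 peak.

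Pol II away from every TSS was mostly weak and differed between the lists. Of the 10 Veh peaks 4 lay downstream or upstream of Socs1, with folds from 2.17 to 4.04, and 1 in Cish with 2.70. GSK had 5, among them 1 in a Jak1 intron with 3.54 and 1 in a Raver2 intron downstream of Jak1 with 3.56. Veh had none at either site. Another GSK peak lay at the Socs1 +13 kb LSD1 site with 2.78. The Unc13a intron upstream of Jak3 held Pol II in both, with 4.56 and 3.16.

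Enhancers followed the definition of the study: merged H3K4me1 and H3K4me2 peaks of both treatments without H3K4me3 and at least 2.5 kb from any TSS. The loci held 47 of the 26676 obtained here. Jak1 had 13, Stat4 10, the Stat3, Stat5a and Stat5b locus 9, Socs1, Socs3 and Cish 4 each, Jak3 3 and Socs2 0. LSD1 was on 7 of the 47 in Veh, and on 4672 of all 26676. It stayed on 4 of the 7 in GSK, while 42.1% of the 4672 kept it. The 4 were the Stat5b intron, a pair downstream of Socs1 and the Cish enhancer at 107305618 to 107308761. H3K27ac was on 4 of the 47 in at least 1 treatment, or 8.51%, against 3.40% of all enhancers. Only the Socs1 enhancer at 10772709 to 10773223 had it in both treatments, and those at Stat4 and a pair at Cish in Veh only. H3K4me1 was in both treatments at 28 (59.6%), in Veh only at 7 (14.9%) and in GSK only at 11 (23.4%). The shares over all enhancers were 67.1%, 9.87% and 22.5%, so the GSK-only share was close to that of all. H3K4me2 was on 6 (12.8%), each in Veh only, a state of 6.30% of all enhancers.

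Beyond the 10 genes, 41 further pathway genes were examined: kinases, STATs, SOCS and PIAS proteins, phosphatases, cytokine receptors and STAT5 target genes. H3K4me3 was at 40 of the 41 promoters in both treatments, and at Lta in Veh only. Of all 21000 protein-coding genes, 11750 had it in both and 0.319% in Veh only. LSD1 was in both treatments at 24, against 7581 of the 21000. It was in Veh only at 3 (Il12rb1, Il12rb2 and Myc), against 4.85% of all genes. In GSK only it was at 6 (Socs7, Pias4, Ptpn2, Ptpn6, Il6st and Pim1), against 10.8%. H3K27ac was in both at 8, in Veh only at 16 and in GSK only at 0. The 16 include the IL-2 receptor chains Il2rb and Il2rg, along with Stat6, Socs4 and Socs5. Veh only was the state of 13.8% of all genes and GSK only of 0.39%. Of all 4819 genes with a Veh H3K27ac peak, 39.9% also had a GSK peak, the GSK list being the shorter. Lists of equal length were not examined for these 41 genes. Pol II was in both at 21, in Veh only at 5 and in GSK only at 2. Over all genes it was in both at 5213, in Veh only at 8.28% and in GSK only at 3.3%. H3K4me2 was in both at 12, in Veh only at 9 and in GSK only at 1. The values over all genes were 6278, 14.3% and 2.09%. For H3K4me1 it was in both at 12, in Veh only at 3 and in GSK only at 6, against 6222, 3.7% and 10.8%.

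The pattern of peaks over the 12 lists was shared by 67 further genes for Socs1, which is 0.319% of all, and Cish had the same pattern. Among these genes the mean absolute difference of the 12 fold percentiles was smallest to Socs1 for Hcst (3.43 percentage points) and Dusp4 (3.53), and to Cish for Fam107b (5.49) and Plekha2 (6.24). For Socs3 the nearest of 199 genes were Ier5 (4.85) and Rbm3 (5.78). For Jak1 they were Zmat1 (5.33) and D030056L22Rik (5.62) of 338, and for Stat3 Dars (7.28) and Cenpw (10.9) of 79. Stat5a was nearest to Ap1ar (7.37) and Shkbp1 (8.53), Stat5b to Osbp (9.36) and Scarb1 (10.1), and Stat4 to Pgam1 (10.8) and S100a10 (13.5). Socs2 was nearest to Cln3 (13.5) and Rassf1 (14).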

How the data were processed

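Per the study's methods, the authors kept reads with a unique Bowtie2 (v2.3.5.1) alignment to mm10, removed PCR duplicates with Samtools (v1.9) and called peaks per library with MACS2 (v2.1.2) against input at a p-value cutoff of 0.001. Fragment length is not given in the sources used here. Narrow peaks with summits were called for LSD1 and Pol II, and broad regions for histone marks, whose −log10 q starts just above 3. In the deposited lists, fold is a ratio of the ChIP pileup over the local background. Each deposited peak also carries −log10 p, −log10 q and a score, and the last was not used here.

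Overlap meant at least 1 bp. TSSs were the starts of curated transcripts of GRCm38.p6, and where several promoter peaks met a window the highest fold was taken. Peaks were named by a rule: all 10 genes with their promoter peaks, and elsewhere the strongest and the treatment-specific LSD1 peaks and every H3K27ac peak per locus. Peaks given beside them and the printed sequences were chosen after their values were seen. Likeness was computed over the 12 fold percentiles, with 0 for no peak, and is not reported here for Jak3. Members and lists were chosen with earlier results of these data known. The split of H3K27ac by Veh fold and the search for shared Stat5 sequence were added after the data were seen. Intervals are Wilson intervals. No test was run, since each group is 1 library. Overlap code was tested on simulated peaks. Alternatives were stricter peaks, lists of equal length, other windows and flanks, covered length and −log10 p in place of fold. Python 3.11.15, NumPy 2.4.6, SciPy 1.17.1 and Matplotlib 3.10.9 were used.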

Additional observations from a re-analysis of the deposited data

How the results depend on the processing

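Of 138 alternative values, 118 stayed within 1.5 times the count, the interval or the SD between genes of the value reported. Equal length leaves the shorter list of a pair unchanged, so promoter counts in that list could not move. Wide intervals also let large shifts count as unmoved, such as the H3K4me2 peak ratio of 0.261 and 0.6 at equal length. The tally is therefore no measure of robustness. With a −log10 q of at least 5, LSD1 was at 3 (Veh) and 6 (GSK) promoters, Pol II at 6 and 5, and outside member promoters the share of Veh peaks overlapped in GSK was 83.3% of 12 for LSD1, 50% of 6 for H3K4me2 (21.1% of 19 as reported) and 0% of 2 for Pol II. With lists of equal length, H3K27ac was at 2 Veh promoters, its peak ratio was 1.4, and the overlapped share was 100% of 3 for H3K27ac and 66.7% of 6 for H3K4me2. A TSS window of 0.5 kb gave H3K4me1 at 2 Veh and 4 GSK promoters and a median log2 ratio of 0.090 from 2 genes, in place of −0.16. A window of 2.5 kb gave H3K4me2 at 5 Veh promoters. An overlap of 50% gave 10% for H3K27ac, a flank of 5 kb gave 0% of 5 for Pol II, and covered length gave a ratio of 0.163 for H3K27ac. With −log10 p in place of fold, the median log2 ratio was −0.16 for H3K4me2, −0.17 for H3K4me3 and −0.22 for H3K27ac, in place of 0.13, −0.040 and 0.32. Except where a longer or shorter list or fewer genes enter by construction, the cause was not tested. No paired analysis was possible because each antibody and treatment has 1 library.

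The lists give no depth per peak and the libraries were not sequenced equally, least so for H3K27ac, so a difference in peak number mixes enrichment with sequencing depth, and a missing peak is a value below the threshold of its library. Most loci hold few peaks per list, so shares have wide intervals. Peaks at neighbouring genes were assigned by position only.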
